A study of Danio rerio with 7 samples.

Results

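Of the 51033 zebrafish transcripts listed in 7 RNA-seq libraries, 82 were detected in dim cells of a glial reporter line and not in bright ones. They had at least 10 estimated counts in each of the 3 GFP low libraries and 0 counts, after rounding, in each of the 4 GFP high libraries, with a mean over the 7 libraries of under 1000 TPM. The libraries came from untreated 3-month-old gfap:GFP zebrafish, whose ependymoglial cells were sorted by brightness into GFP low (replicates 3 to 5) and GFP high (replicates 1 to 4). Every library carries the same transgene, in which green fluorescent protein follows the promoter of gfap. Brightness thus reports the fluorescent protein made from the transgene and not a separate marker. The labels do not say whether animals were pooled or whether replicates were separate animals, so the spread between libraries may be technical. Because the members were chosen by the contrast of GFP low with GFP high, their difference between the groups is given as a description, and no test of it is used as support.

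Ependymoglia are glial cells at the ventricle surface of the fish brain, where they serve as neural stem cells, and gfap encodes their intermediate filament protein. A gene commonly makes several transcripts that share exons, and many zebrafish genes also have near-identical copies. Read pairs that match several transcripts are divided between them by kallisto, the program named for these files, which leaves an estimated count that is not a whole number. An estimated count of 0 can therefore mean that matching read pairs were assigned to another transcript. The files name transcripts by identifier only, and 0 of the identifiers occur in the reference tables used here, so no gene name, protein, sequence or coordinate is given, and neither ependymoglial identity nor other cell types were checked by markers.

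Total estimated counts ran from 10629779 to 21796141 in the GFP low libraries and from 20076189 to 25545724 in the GFP high libraries. An upper limit of 3 counts was taken for a count of 0. At these depths that is 0.141 to 0.266 CPM in single GFP low libraries and 0.123 to 0.158 CPM in single GFP high libraries. Over the GFP high group as a whole the limit is 0.0333 CPM. CPM values throughout are counts divided by library size after TMM scaling, a method that balances library composition. These limits cover counting error only, not read pairs assigned to another transcript.

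The 82 transcripts were 0.316% of the 25949 that reached 10 counts in each GFP low library. The reverse rule, 0 in GFP low with 10 or more in all 4 GFP high libraries, held for 73 of 26982 transcripts (0.271%). The step to 0 was steep: with at least 10 counts in each GFP low library, 7 transcripts had a summed count of 1 in GFP high, 7 had 2 and 16 had 3. In 67 of the 82 the unrounded GFP high values were exactly 0 in all 4 libraries. The other 15 held fractions that rounding removed, the largest 0.446 counts in ENSDART00000065262.6. Leaving a library out can only add members: there were 124 without GFP low replicate 3, 107 without replicate 4 and 149 without replicate 5, against 104 to 115 with 1 GFP high library left out. When all libraries were thinned in 1 random draw to the depth of the smallest, 72 transcripts met the rule, 67 of them members. Under the reverse rule there were 34. Thinning takes more from every GFP high library than from GFP low replicates 3 and 5. The reverse rule also asks for 10 counts in 4 libraries rather than 3. Shares of all transcripts were not taken after thinning, so nothing is read from the difference between these counts.

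Most of the transcripts were rare. Their mean level in GFP low had a median of 3.88 CPM, with quartiles of 2.35 and 8.13 CPM, against a median of 10.9 CPM for all transcripts with 10 counts in each GFP low library. Together they held 0.0503%, 0.0542% and 0.0444% of the estimated counts of GFP low replicates 3 to 5. Folds were taken from counts pooled over the libraries of each group, with 3 counts in place of 0 in GFP high. A library with many counts thus weighs more than in a mean of CPM. The error of the GFP low counts was left out, and in 79 of the 82 transcripts read pairs were divided with other transcripts. These folds are therefore not strict lower bounds. On this scale the level in GFP low was 115-fold higher for the median transcript, with values between 24.4-fold and 1026-fold over the set. In bulk libraries such a difference cannot separate fewer cells that contain a transcript from less of it per cell. All 82 passed a 5% false discovery rate in edgeR's quasi-likelihood test, where 11.6% of the 33178 transcripts tested were called higher in GFP low. The rule fixed the direction and favoured a call, so nothing is read from that outcome.

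**Figure D1:**
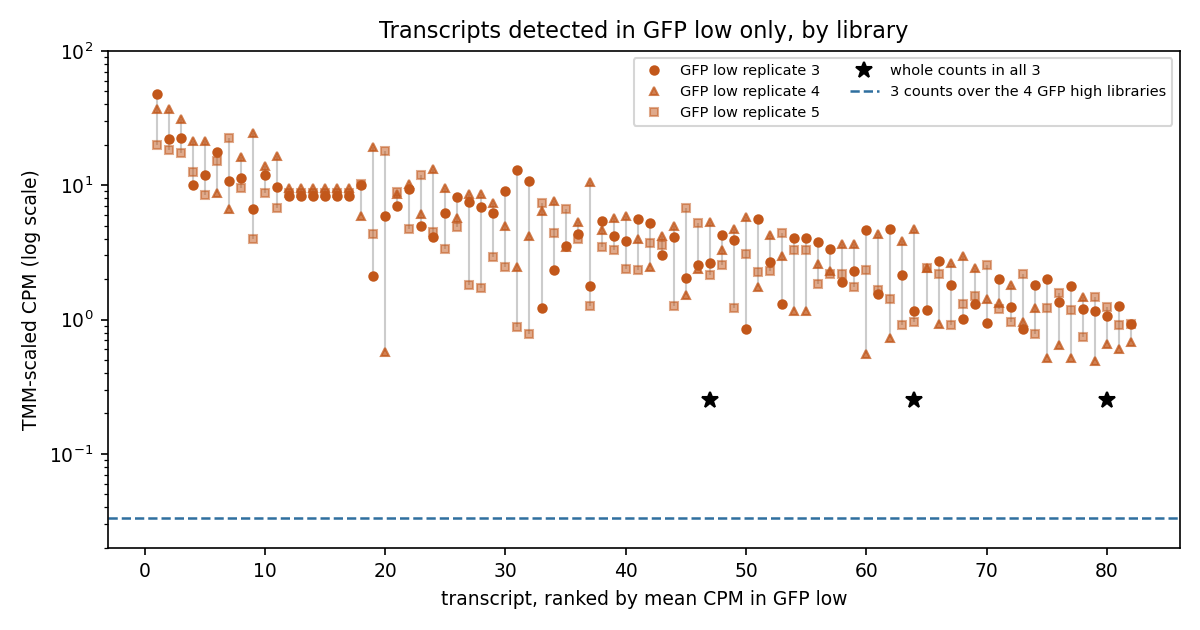
Level of each of the 82 transcripts in the 3 GFP low libraries, in TMM-scaled CPM on a log axis, ranked by mean (points, with a grey line from the lowest to the highest library); all were at 0 counts after rounding in GFP high, for which the dashed line marks 3 counts over the 4 libraries. Means run from 34.7 to 0.842 CPM, and stars mark the 3 transcripts with whole counts in every GFP low library.

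The transcript with the most counts was ENSDART00000016360.6, of 1434 bases, with 539, 781 and 289 counts in GFP low replicates 3 to 5 and 0 in every GFP high library. These are 47.7, 36.7 and 19.9 CPM, a mean of 34.7 ± 14.0 (SD, n = 3). From pooled counts, with 3 counts in place of 0 in GFP high, the level was 1026-fold higher in GFP low. Only 2 others averaged over 20 CPM, ENSDART00000053444.6 with 25.7 ± 9.71 CPM and ENSDART00000110059.4 with 23.6 ± 6.97 CPM in GFP low (SD, n = 3); both were named after their values were seen. The estimated counts of all 3 were not whole.

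At the lower edge stood ENSDART00000169487.1 with 10, 14 and 13 counts in GFP low replicates 3 to 5, ENSDART00000139942.1 with 13, 10 and 21, and ENSDART00000144840.2 with 10, 20 and 32. Just outside it, ENSDART00000136855.1 had 21, 39 and 9 counts, ENSDART00000164141.1 had 24, 25 and 9, and ENSDART00000169581.1 had 23, 21 and 9, all with 0 in GFP high. Each of these missed the minimum in GFP low replicate 5 by 1 count, while their counts in replicate 3 were above those of the 3 just inside.

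In TPM, which divides by transcript length, the order was led by 6 transcripts of 168 bases that could not be told apart. ENSDART00000128006.2, ENSDART00000125906.2, ENSDART00000158776.1, ENSDART00000162051.1, ENSDART00000163727.1 and ENSDART00000165173.1 had the same estimated count in every library: 94, 201 and 127 after rounding in GFP low replicates 3 to 5 and exactly 0 in GFP high. Each was at 8.34, 9.44 and 8.73 CPM, the most even levels among members with at least 50 counts in each GFP low library, and at 279, 256 and 310 TPM. Their effective length was only 52.3 to 55.6 bases, which makes their TPM high at a modest count. Summed, the 6 held 566, 1207 and 761 counts, and 0.169% ± 0.0162 of all TPM in GFP low (SD, n = 3), out of 0.228% ± 0.0113 for the whole set of 82. They are 1 signal divided evenly among 6 entries. The sum was not whole in any GFP low library, so further transcripts took part in the division. ENSDART00000168662.1 and ENSDART00000018545.8, both of 2037 bases, likewise shared every value, so the 82 entries hold 76 distinct count patterns.

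Next in TPM were ENSDART00000151525.2 with 43.8, 63.2 and 33.7 TPM in GFP low replicates 3 to 5, ENSDART00000016360.6 with 65.4, 43.1 and 30.3, ENSDART00000150325.1 with 76.4, 34.9 and 22.9, and ENSDART00000151370.1 with 37.4, 15.9 and 35.6. No GFP low library was the highest for all 4. Of the 82, 23 averaged over 10 TPM in GFP low, 56 lay between 1 and 10 TPM, and 3 were under 1 TPM.

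Nearly all of the transcripts shared read pairs with others. In 79 of 82 (96.3%) the estimated count was not whole in at least 1 GFP low library, against 20231 of the 25949 transcripts with 10 counts in each GFP low library (78.0%). The transcripts found in GFP high only were alike in this, with 70 of 73 (95.9%) against 78.7% of those with 10 counts in each GFP high library. The contrast remained at similar counts: of the 57 members with a mean under 100 counts, 94.7% were not whole, against 81.8% of the 9317 transcripts in that range. In the range of 100 to 1000 counts the shares were 100.0% of 25 members and 76.2% of 13810 transcripts. These shares are descriptions over transcripts, which are not independent, and were not tested.

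**Figure D2:**
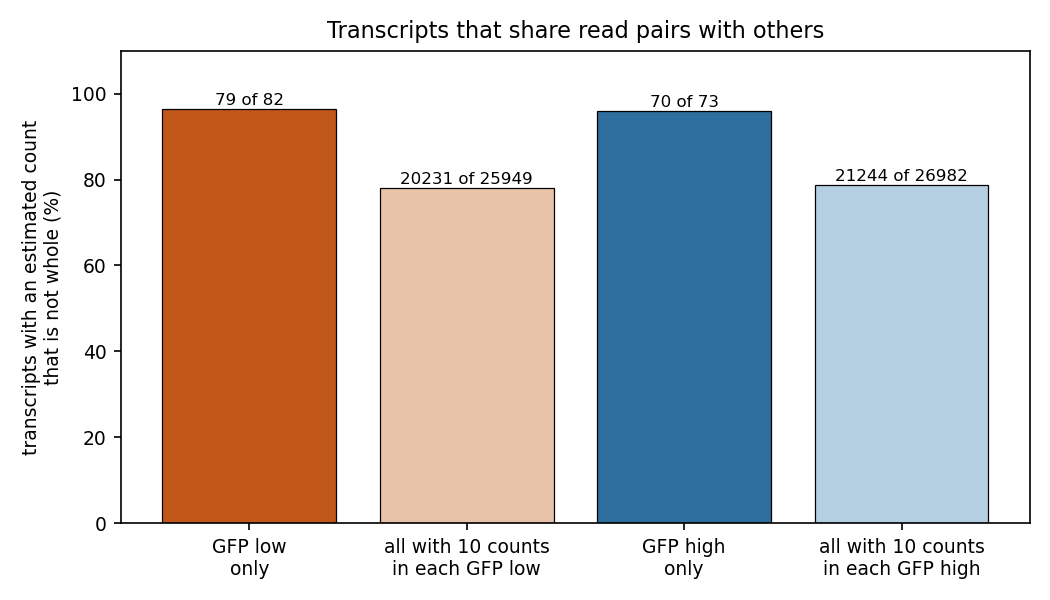
Percentage of transcripts whose estimated count was not whole in at least 1 library of the named group, the form a count takes when read pairs are divided between transcripts. Bars show the 82 GFP low only transcripts (96.3%), all with 10 counts in each GFP low library (78.0%), the 73 GFP high only transcripts (95.9%) and all with 10 counts in each GFP high library (78.7%).

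The 3 members whose counts were whole in every GFP low library were the only ones whose counts show no divided read pair. ENSDART00000112372.4, of 907 bases, had 30, 113 and 31 counts in GFP low replicates 3 to 5, ENSDART00000028159.7, of 2173 bases, had 13, 100 and 14, and ENSDART00000147643.1, of 4489 bases, had 12, 14 and 18. All were exactly 0 in GFP high. The first of them averaged 3.36 ± 1.70 CPM in GFP low and the second 2.27 ± 2.10 CPM (SD, n = 3 each). In both, replicate 4 was the highest library. For ENSDART00000028159.7 it held 100 of the 127 counts, at 4.70 CPM against 1.15 and 0.964 in replicates 3 and 5, and without it the mean was 1.06 CPM. ENSDART00000147643.1 was at 1.06, 0.657 and 1.24 CPM. From pooled counts, with 3 counts in place of 0 in GFP high, ENSDART00000112372.4 was 111-fold higher in GFP low, ENSDART00000028159.7 81.0-fold and ENSDART00000147643.1 28.1-fold. These 3 transcripts made up 1.504% of the members' counts in GFP low.

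The form of the counts also showed with which transcripts some members shared their read pairs. For 10 members another transcript was found whose estimated count, added to the member's, gave a whole number in each GFP low library. In 9 of the 10 pairs the partner stood in the neighbouring row of the deposited table, although row order played no part in the search. The sum over the GFP low and GFP high libraries was whole in all 7 for 9 of the 10 members, the exception being ENSDART00000139552.3. In GFP high the member's share of the pair was 0 after rounding, so the pair's count stood on the partner.

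In pairs with an abundant partner, the pair as a whole was well represented in GFP high. ENSDART00000131785.3 (2231 bases) had 114, 455 and 183 estimated counts in GFP low replicates 3 to 5, beside 562, 853 and 593 for its partner ENSDART00000023963.8 (2377 bases). In GFP high the partner had 1186, 1078, 1499 and 1577 counts in replicates 1 to 4. Summed, the pair had 58.2 ± 4.24 CPM in GFP low (SD, n = 3) and 58.9 ± 5.31 CPM in GFP high (SD, n = 4), and the groups overlapped. The member thus took 25.1% ± 9.03 of the pair in GFP low and none of it, after rounding, in GFP high. For ENSDART00000145966.1 the same held at a lower level. It had 91.9, 122 and 70.4 counts in GFP low, 48.2% ± 6.91 of its pair, and the pair had 12.8 ± 1.79 CPM in GFP low and 15.1 ± 4.17 CPM in GFP high.

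ENSDART00000172089.1 belonged to a pair that was lower in the dim cells. It had 135, 456 and 123 counts in GFP low replicates 3 to 5, while its partner ENSDART00000076304.4 had 652, 1465 and 698 in GFP low and 3092, 2984, 3359 and 4518 in GFP high. The pair had 69.7, 90.2 and 56.5 CPM in GFP low and 137, 157, 138 and 185 CPM in GFP high. All 3 GFP low libraries lay below all 4 GFP high libraries, although after rounding the member itself was given counts in GFP low only. The deposited values do not show how many of the partner's read pairs in GFP high would also match the member.

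In the remaining pairs the summed CPM of every GFP low library was above that of every GFP high library. Counts alone need not show this, because the libraries differ in depth. Each sum holds a member that the rule set to 0 in GFP high, which tilts it towards GFP low, and the sums were not tested. Among all 29010 transcripts with at least 10 counts in each library of either group, 19.6% were above without overlap. In the order of this paragraph, the partners alone stood in GFP low at 4.64, 3.84, 0.967, 1.42, 0.875 and 8.02 times their GFP high mean CPM. ENSDART00000165904.1 had 34.1, 89.2 and 52.1 counts, 5.90% ± 2.36 of its pair, and the partner ENSDART00000103510.4 had 1009, 1266 and 613 counts in GFP low and 263, 291, 322 and 355 in GFP high. The pair of ENSDART00000141361.1 held 82, 237 and 74 counts in GFP low and 22, 5, 35 and 31 in GFP high, with the member at 50.8% ± 3.63 of it in GFP low. The pair of ENSDART00000088819.5 held 92, 220 and 98 counts in GFP low against 109, 112, 117 and 67 in GFP high. In CPM it ran from 6.75 to 10.3 in GFP low and from 2.75 to 5.91 in GFP high. The member's part ran from 34.7% to 68.7% between the GFP low libraries. The pair of ENSDART00000139552.3 held 269, 600 and 335 counts in GFP low, of which the member took 10.1% ± 2.69, and 330, 287, 483 and 334, after rounding, in GFP high. Its sums were not whole in GFP high replicates 1, 3 and 4, so further transcripts took part in the division there. With these, the sums were 335, 287, 491 and 336 counts in GFP high. The CPM of the pair alone ran from 23.1 to 28.2 in GFP low and from 13.7 to 19.9 in GFP high. ENSDART00000163255.1 took 49.3%, 100.0% and 85.6% of 23, 63 and 22 counts in GFP low, against pair counts of 15, 4, 11 and 14 in GFP high. In the pair whose rows lie 1194 apart, ENSDART00000147689.1 and ENSDART00000137323.1, both of 615 bases, there were 19, 43 and 20 counts in GFP low and 0, 1, 1 and 7 in GFP high.

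For ENSDART00000145147.3, of 7639 bases, the pair changed hands between the groups. It took 97.2%, 100.0% and 100.0% of the pair's 27, 163 and 64 counts in GFP low replicates 3 to 5. Its partner ENSDART00000040627.5, of 7358 bases, took all of the pair's 10, 4, 17 and 26 counts in GFP high replicates 1 to 4. In CPM the pair was 7.96 times higher in GFP low, with means of 4.82 ± 2.66 in GFP low (SD, n = 3) and 0.605 ± 0.367 in GFP high (SD, n = 4). Nearly all of the pair in GFP low is the member that the rule chose, so this difference was not tested. The partner alone stood in GFP low at 0.0374 times its GFP high mean CPM. The deposited values do not show how many of the partner's read pairs in GFP high would also match the member, so a real switch of transcripts and a different division of ambiguous read pairs cannot be told apart here.

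**Figure D3:**
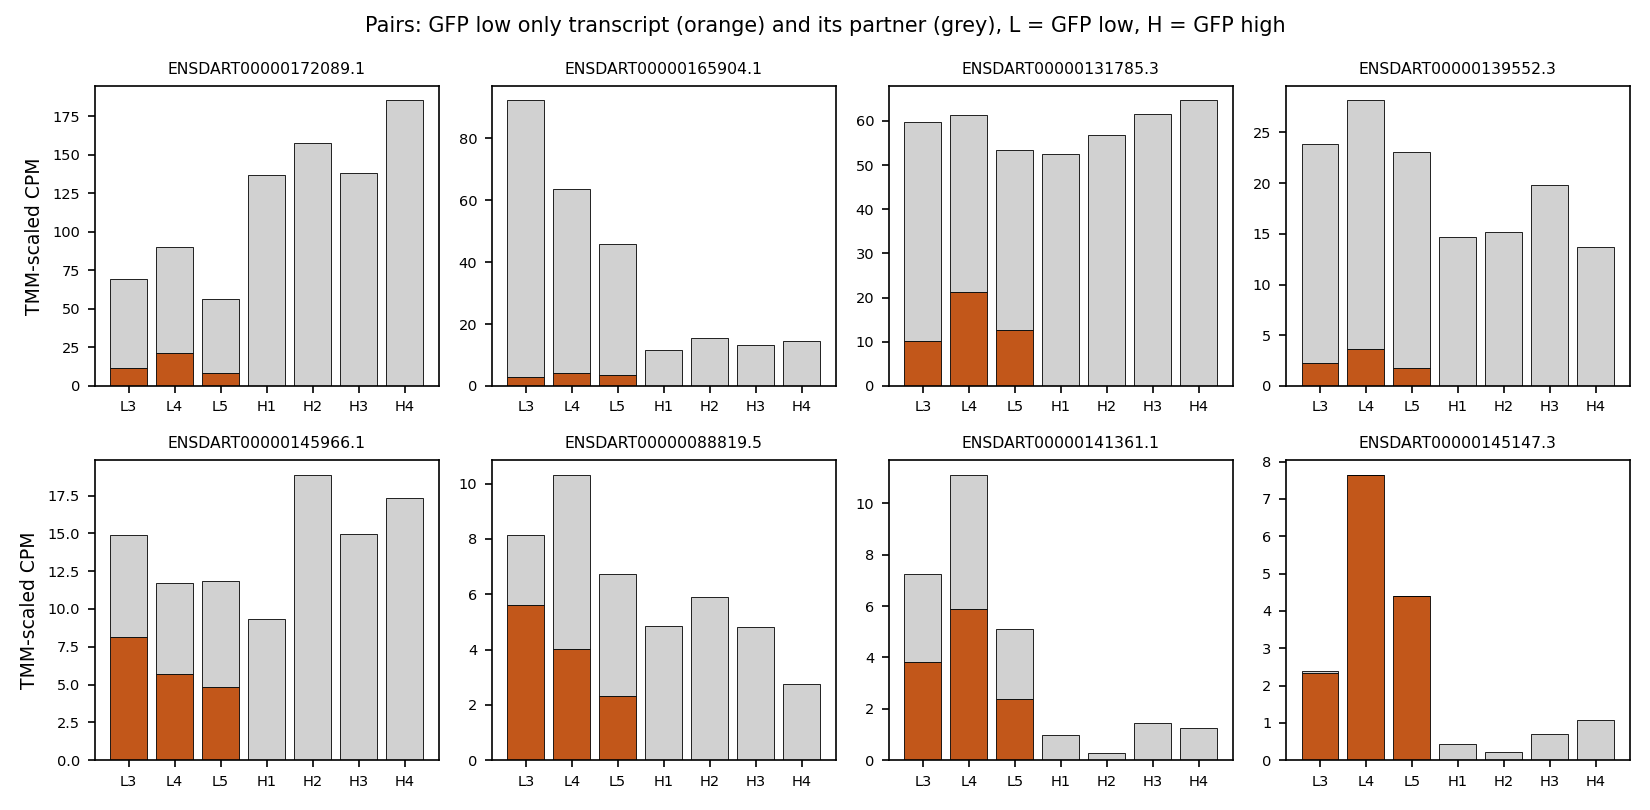
TMM-scaled CPM of 8 GFP low only transcripts (orange, named above each panel) stacked on their read-sharing partners (grey) in GFP low replicates 3 to 5 (L3 to L5) and GFP high replicates 1 to 4 (H1 to H4). The orange part is missing from every GFP high bar, while the grey part is present in all 4 GFP high libraries of each panel.

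The partners were not chosen by the rule, but read pairs given to a member in GFP low are taken from its partner there. This lowers the partner in GFP low, so the tests of partners are tied to the rule. Of the 10 partners, 9 were abundant enough to be tested and 5 passed a 5% false discovery rate in edgeR's quasi-likelihood test over all transcripts, where 21.8% passed in either direction. Higher in GFP low were ENSDART00000103510.4, with a log2 fold change (GFP low over GFP high) of 2.22 ± 0.24 (SE) and adjusted p = 0.000525 by edgeR, and ENSDART00000061153.5, the partner of ENSDART00000141361.1, with 1.94 ± 0.55 and adjusted p = 0.0356 by edgeR. Lower in GFP low were ENSDART00000076304.4 at -1.41 ± 0.17 (adjusted p = 0.000747 by edgeR), ENSDART00000036845.7, the partner of ENSDART00000145966.1, at -1.20 ± 0.26 (adjusted p = 0.0130 by edgeR) and ENSDART00000023963.8 at -0.44 ± 0.13 (adjusted p = 0.0457 by edgeR). Summed with its member, ENSDART00000076304.4 stayed lower in GFP low, at 0.467 times the GFP high mean. The sums for ENSDART00000036845.7 and ENSDART00000023963.8 overlapped between the groups, at 0.846 and 0.988 times that mean. The sums were not tested. The call on ENSDART00000023963.8 was lost without GFP low replicates 4 or 5 or any of the GFP high libraries, and also with RLE scaling, with no filter on low counts and with the replicate number as a block (edgeR adjusted p = 0.0502, 0.0545 and 0.19), while its log2 fold change stayed between -0.55 and -0.37. With the block, the calls on ENSDART00000061153.5 and ENSDART00000036845.7 were lost too (edgeR adjusted p = 0.19 and 0.0715). The call on ENSDART00000061153.5 was lost without GFP low replicates 3 or 4 and without GFP high replicates 1 or 4. The number called was 3 without GFP low replicate 4, without GFP high replicate 1 or without GFP high replicate 4.

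Longer runs of neighbouring rows extended this picture. A block was taken as the smallest run of 2 to 10 neighbouring rows, with a member in it, whose estimated counts sum to a whole number in all 7 libraries. Such blocks were found for 26 of the 82 members, in 24 blocks of 2 to 10 transcripts that share read pairs. For 53 members with divided counts no block was found, and except for ENSDART00000147689.1 of the distant pair and the 6 transcripts of 168 bases, which share read pairs with each other, no partner was identified for them. Blocks were found for 36.1% of all transcripts with 10 counts in each GFP low library and for 31.7% of the members.

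Of the 24 blocks, 19 had at least 10 summed counts in every GFP high library and 17 had at least 100. Of the 37 blocks around transcripts found in GFP high only, 27 had at least 10 counts in every GFP low library and 20 had at least 100. The members were a minor part of most of their blocks. They took a median of 12.6% of the block's counts in GFP low, under 25% in 15 blocks and over 50% in 5. Summed over the block, all GFP low libraries lay above all GFP high libraries in 14 blocks, below them in 3, and overlapped with them in 7. Among all 29010 transcripts with at least 10 counts in each library of either group, 19.6% were above and 19.4% below without overlap. Since each block holds a member chosen for being higher in GFP low, these counts were not tested.

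**Figure D4:**
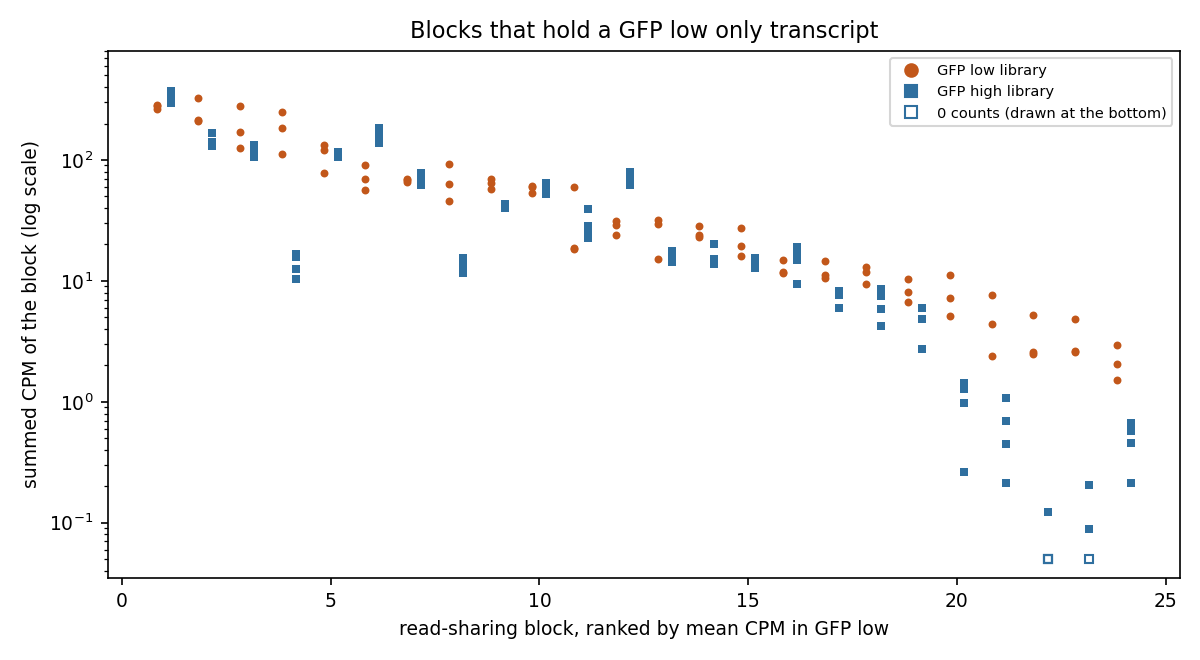
Summed CPM, on a log axis, of each of the 24 read-sharing blocks that hold a GFP low only transcript, with the 3 GFP low libraries as orange circles and the 4 GFP high libraries as blue squares; open squares at the bottom mark 0 counts. In 14 blocks all GFP low libraries lie above all GFP high libraries, in 3 they lie below and in 7 they overlap.

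The blocks described next were picked after their values were seen. The largest was that of ENSDART00000147799.1, with 278 ± 10.9 CPM in GFP low (SD, n = 3) and 329 ± 31.9 CPM in GFP high (SD, n = 4), of which the member took 0.443% in GFP low. In the block of ENSDART00000058627.4 the sums were 27.9 ± 3.73 CPM in GFP low and 68.8 ± 7.33 CPM in GFP high. Each of these blocks was lower in GFP low in all libraries, while its member was detected there alone.

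The block with the largest absolute difference towards the dim cells held 2 members in neighbouring rows, ENSDART00000151083.2 and ENSDART00000151525.2. It had 2074, 5346 and 1614 counts in GFP low replicates 3 to 5, and 353, 317, 251 and 307 in GFP high replicates 1 to 4. It had 182 ± 70.0 CPM on average in GFP low (SD, n = 3) and 13.8 ± 2.92 CPM in GFP high (SD, n = 4), a 13.2-fold difference, and the 2 members made up 7.75% ± 0.713 of it in GFP low. The other transcripts of the block held the rest, and all of its GFP high counts.

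Only 2 blocks were close to 0 in GFP high as a whole. That of ENSDART00000157255.2 had 29, 53 and 76 counts in GFP low and 0, 0, 3 and 0 in GFP high, with the member at 98.4% ± 2.72 of the GFP low counts. The block of ENSDART00000135084.1 had 55, 55 and 38 counts in GFP low and 2, 0, 5 and 5 in GFP high, with the member at 82.5% ± 15.5.

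The members varied more between the dim libraries than other transcripts did. The highest GFP low library stood at a median of 2.42 times the lowest, with quartiles of 1.85 and 3.47, against 1.57 for all transcripts with 10 counts in each GFP low library. Among those with a mean under 100 counts the medians were 2.59 for the members and 1.87 for all. More than 5-fold differences were seen for 10 members (12.2%) and for 2.16% of all. The set detected in GFP high only, over 4 libraries, had a median of 2.85 and all transcripts with 10 counts in each GFP high library had 1.51. The part that divided read pairs have in this spread was not tested.

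**Figure D5:**
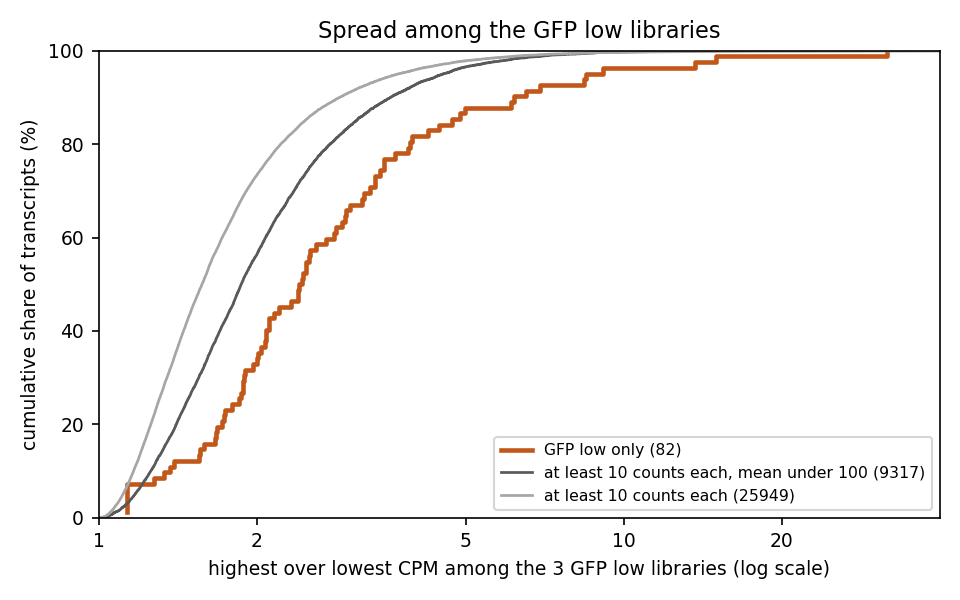
Cumulative share of transcripts against the ratio of the highest to the lowest CPM among the 3 GFP low libraries (log axis), for the 82 GFP low only transcripts, for all with at least 10 counts in each GFP low library and a mean under 100, and for all with at least 10 counts. The members lie to the right of both other lines over most of the range, with medians of 2.42, 1.87 and 1.57.

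Among members with at least 50 counts in each GFP low library, the least even was ENSDART00000164572.1, with 6.68, 24.6 and 3.99 CPM in replicates 3 to 5; its mean of 11.8 CPM became 5.33 without replicate 4. ENSDART00000079155.5 had 10.8, 6.65 and 22.3 CPM, with a mean of 13.2 CPM that became 8.71 without replicate 5, and ENSDART00000172089.1 had 11.9, 21.4 and 8.49 CPM. Replicate 4 was the highest library in the first and last of these, and replicate 5 in the other. Over the set, replicate 4 was the highest for 43 members (52.4%), replicate 3 for 23 and replicate 5 for 16, where 39.8%, 29.3% and 30.9% of all transcripts were highest in replicates 4, 3 and 5. The 43 include the 6 transcripts that share 1 signal. With CPM on library totals alone, replicates 4, 3 and 5 were the highest for 35, 24 and 23 members. The shares of all transcripts were not taken on that scale, so the comparison with them holds for TMM scaling only.

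In length the members had a median of 1487.5 bases, against 2086 for all transcripts with 10 counts in each GFP low library and 2003 for those found in GFP high only. Members with a mean under 100 counts had a median of 1496 bases and all transcripts in that range 1493. At 100 to 1000 counts the 25 members had a median of 1434 bases and all transcripts in that range 2392; the 25 include the 6 of 168 bases. The shortest members were the 6 of 168 bases. The longest, ENSDART00000126871.2 with 67298 bases, had 15, 63 and 64 counts in GFP low replicates 3 to 5, which over such a length is 0.0761 TPM. The identifiers of 46 members (56.1%) were in their first version, against 39.1% of all with 10 counts in each GFP low library. At a mean under 100 counts the shares were 59.6% of members and 51.6% of all, and at 100 to 1000 counts 48.0% of members and 33.5% of all.

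A neighbouring row with at least 10 counts in every GFP high library was found for 68 of the 82 members (82.9%). The share was 81.1% over all transcripts with 10 counts in each GFP low library, so the members as a whole were close to it. Within count ranges they differed in opposite directions. At a mean under 100 counts the shares were 89.5% of members and 80.1% of all, and at 100 to 1000 counts 68.0% and 81.4%. The 25 members at 100 to 1000 counts include the 6 of 168 bases, which share every value. These differences were not tested.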

How the data were processed

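RNA of cells sorted by GFP brightness was copied with a SMART-Seq v4 kit and read as pairs of 100 bases, per the labels' protocols. The estimated counts were deposited by the authors per transcript, not normalized; per the submitters' processing notes the tools were kallisto and sleuth and the build danRer10, and their versions and settings were not stated in the sources used here. TPM values are the authors' own, deposited beside them, and other columns hold length and effective length in bases. Deposited values carry 6 significant digits or fewer.

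Members and lists were chosen with earlier results of these data known. Counts were rounded for the rule and for edgeR 4.0.16 (R 4.3.3; quasi-likelihood F test, TMM, filterByExpr, Benjamini-Hochberg, 5% FDR, fold change GFP low over GFP high), fitted on all transcripts. The alternatives were DESeq2 1.42.0, other scalings, no filter, a replicate block, thinning and leaving out libraries. A count was called whole within 1e-06. Pairs had to sum to a whole number within 0.002 plus the rounding of the deposited digits, with the partner under 10000 counts, a ceiling added after the data were seen because larger values carry too few decimals; blocks were also added then, with a slack of at most 0.05. Pair and block searches and the edgeR script were tested on simulated data. The simulated blocks had at most 5 rows, and the simulated pairs lay in neighbouring rows. Longer blocks and the distant pair were thus not covered. No 2 libraries of a group agreed within sampling noise (chi-square per degree of freedom of 19.7 or more).

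Transcripts were named by level, whole counts, pairs, evenness, the edge of the rule and length; those named otherwise are marked. Lists of marker genes were not used here, because identifiers could not be paired with symbols. The limits of 3 counts cover counting error only, while SD and SE values also take in the spread between libraries.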

Additional observations from a re-analysis of the deposited data

Results flagged for a closer look

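A GFP high library far from the other 3 was looked for in 35 measures, the library totals, the summed levels of the 24 blocks and the levels of the 10 partners. For continuous values chance flags about 1 in 20 such groups, and 1 was found. The measures overlap, because most partners also lie in a block. The block of ENSDART00000157255.2 had 0.123 CPM (3 counts) in GFP high replicate 3, while replicates 1, 2 and 4 had 0. Any group with a single library above 0 is flagged, so that rate does not apply to it and nothing is read from the flag. GFP low, with 3 libraries, is too small for such a comparison.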

How the results depend on the processing

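The number of transcripts detected in GFP low only followed the count minimum: it was 125 at 5 counts, 51 at 20 and 24 at 50, against 82 at 10. It was 67 with unrounded zeros, 112 with up to 3 counts summed over GFP high, 72 after thinning and 82 without the TPM ceiling, and ran between 104 and 149 with 1 library left out. With the replicate number as a block, 2135 transcripts passed 5% FDR in place of 7223. So did 41 of the 82 members in place of 82, where 1275 of the 33178 transcripts tested were called higher in GFP low. The members were chosen by this contrast, so nothing is read from their number. Of the partners, 2 passed in place of 5. GFP low and GFP high share the replicate numbers 3 and 4. The deviations of libraries with the same number correlated at r = 0.052 for 3 and 0.089 for 4. With different numbers, r was -0.032 for GFP low 3 with GFP high 4 and -0.073 for GFP low 4 with GFP high 3. Values this small cannot show whether libraries with the same number came from the same animals or sort. The labels do not say either. The fit with the block has only 1 degree of freedom left. Leaving out each library gave 5326 to 6649 transcripts and 3 to 5 partners past 5% FDR. DESeq2, other scaling and no filter kept the count of transcripts within 1.5 times (6756 to 9231) and that of partners too (4 to 7). Members with a pair partner numbered 15 with partners at any count and 9 with the condition in all 7 libraries, and blocks held 19 members when limited to 5 rows. Among the levels of the named members, leaving out 1 GFP low library moved 3 by over 1.5 times: ENSDART00000028159.7 was at 1.06 CPM in place of 2.27 and ENSDART00000164572.1 at 5.33 in place of 11.8 without replicate 4, and ENSDART00000079155.5 at 8.71 in place of 13.2 without replicate 5. No partner called in the main fit changed direction under any alternative. Depth limits what is seen in GFP high below 0.0333 CPM over the group.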
